A study of Homo sapiens with 12 samples.

Results

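The genes described here are the transcription factor gene MYC and factors that build ribosomes in the nucleolus, 56 genes in all. They were taken from a fixed list of symbols. For each gene the probe set with the highest mean over the 12 arrays was read. Of the 56, 50 had a probe set with a single gene symbol and passed the filter on low values, out of 20572 genes that did so in all. The other 6 are not analysed here. NOP56, DKC1 and PPAN lay only in probe sets that carry several symbols, and GNL3, DDX18 and EBNA1BP2 were not among the named probe sets.

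MDA-MB-231 cells, an established triple-negative breast cancer line derived from a pleural effusion, were grown for 24 h under 4 conditions with 3 arrays each. The groups were cells given TNFα at 40 ng/ml together with apigenin at 40 µM, cells given apigenin at 40 µM alone, cells given TNFα at 40 ng/ml alone, and untreated cells. TNFα is an inflammatory cytokine and a known activator of NF-κB. Apigenin is a flavone made by plants. Per the labels the agents were prepared in a buffered salt solution (HBSS), but the labels do not record a vehicle for the untreated cells. All arrays came from this one line. The labels do not say whether the 3 samples of a group were separate cultures, so the p-values reflect variation among these samples that could be technical.

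Ribosomes are made in the nucleolus. RNA polymerase I transcribes the ribosomal RNA precursor, small nucleolar ribonucleoproteins (snoRNPs) guide its chemical modification, and large sets of assembly factors cut, fold and export the small (40S) and large (60S) subunits. MYC is a transcription factor that binds DNA with its partner MAX at the E-box CACGTG and is known as an activator of ribosome biogenesis genes, and in breast cancer cells ribosome production is tied to growth.

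Values are deposited log2 expression values, so a difference of 1 is a doubling. The medians of all kept genes lay between 2.77 and 2.87 on the 12 arrays, and arrays of 1 group correlated at 0.983 to 0.991 across genes, with no identical pair. Most of 8 mesenchymal markers of this line, such as AXL (9.88 to 10.19) and VIM (7.93 to 8.30), were high. TGFBI (3.95 to 4.23) and S100A4 (4.43 to 5.0) were the exceptions. The hormone receptor genes ESR1 and PGR, which a triple-negative line lacks, stayed at or below 2.44. The epithelial and luminal genes EPCAM (4.58 to 5.24) and GATA3 (3.65 to 4.67) were not low. Markers of leukocytes, fibroblasts and endothelium stayed between 1.19 (DCN) and 2.87 (CD14). In RNA from whole cultures, a change in the share of cells that express a gene and a change in RNA per cell cannot be told apart. The members lay well above the middle of the scale, with means over the 12 arrays of 3.70 (POLR1B) to 9.14 (UTP4) and a median of 6.65, against 2.81 for all kept genes. A larger share of the brighter genes was called in these comparisons, so the 7740 kept genes with a mean at or above that of POLR1B are given as a second background. Levels of different probe sets are not compared with each other.

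Most members were lowest in untreated cells and highest in cells given both agents. The group mean was highest with TNFα plus apigenin for 35 of the 50 members (70%, against 26% of all kept genes and 30% of the brighter ones). It was lowest in untreated cells for 41 (82%, against 27.2% of all kept genes and 32% of the brighter ones). None had its highest mean in untreated cells. The median over the members was 6.95, 6.96 and 7.10 on the 3 arrays with both agents, 6.65, 6.70 and 6.83 with apigenin, 6.46, 6.43 and 6.64 with TNFα, and 6.24, 6.06 and 6.34 in untreated cells. The groups did not overlap on this median, and the array numbered 3 was the highest of its group in all 4 groups. These are descriptions of a list that was chosen with earlier results of these arrays known, and carry no test.

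**Figure D1:**
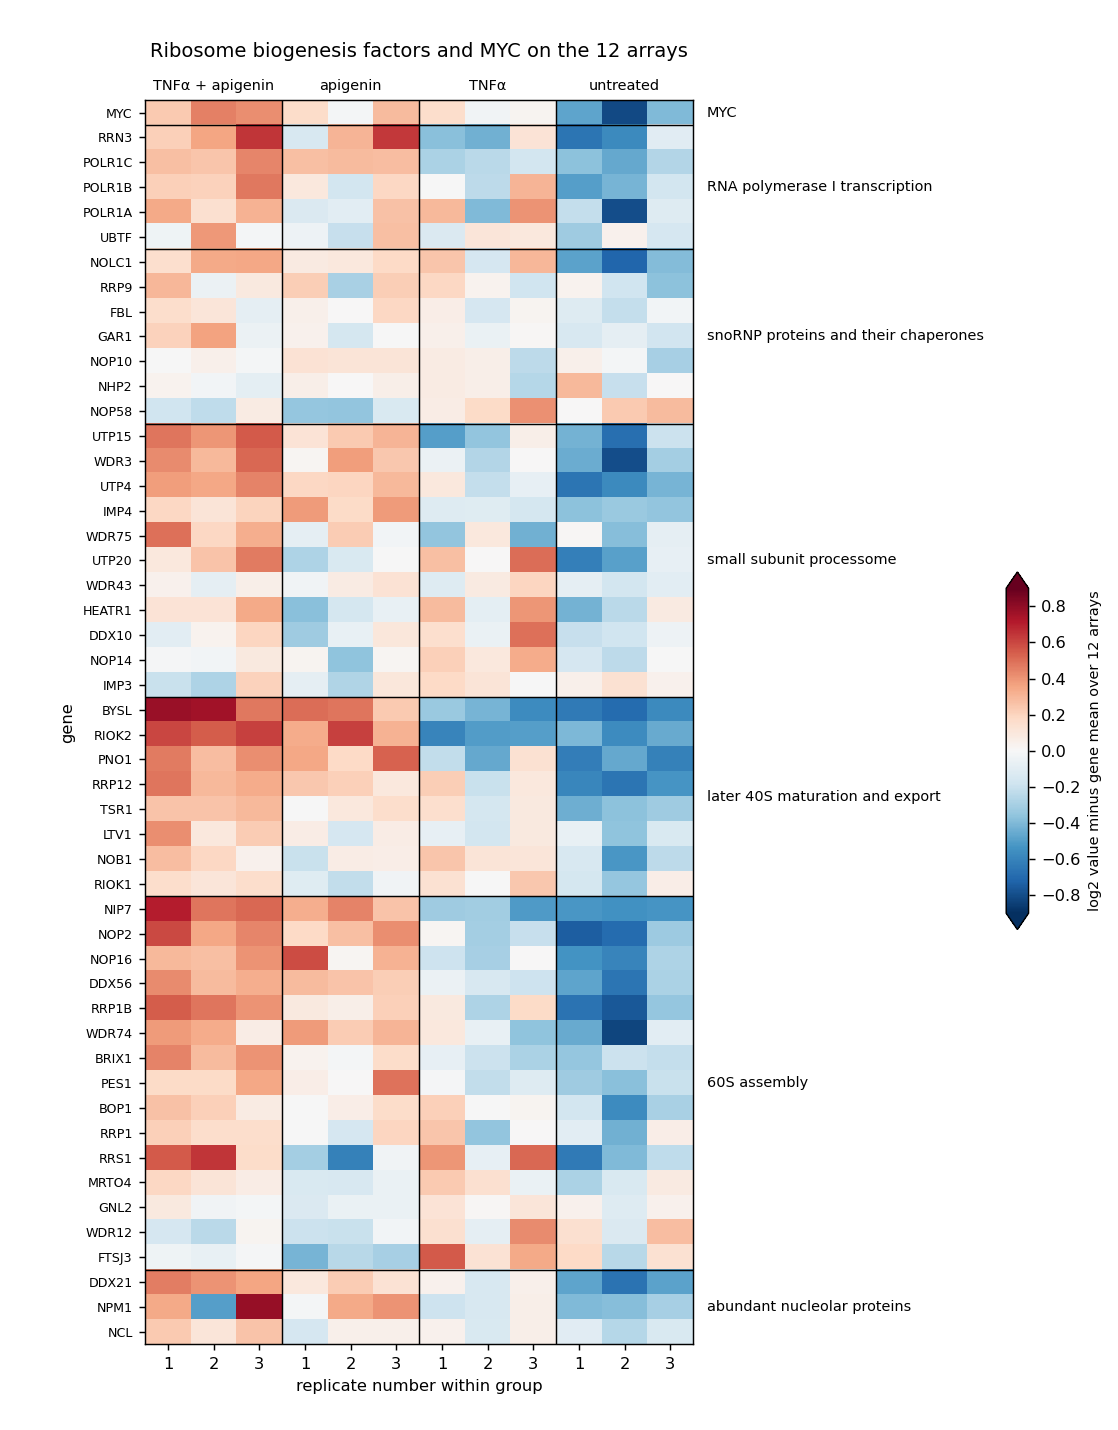
Each row is 1 of the 50 genes and each column 1 of the 12 arrays; colour gives the log2 value minus that gene's mean over the 12 arrays, and rows are grouped by role. The untreated arrays on the right are blue for most rows, the arrays with both agents on the left are mostly red, and NOP58, FTSJ3 and WDR12 run the other way between the arrays with and without apigenin.

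MYC rose with apigenin alone and with both agents, each against untreated cells. Its values were 6.95, 7.17 and 7.13 with both agents, 6.88, 6.70 and 7.0 with apigenin, 6.87, 6.68 and 6.74 with TNFα, and 6.24, 5.90 and 6.32 in untreated cells. Every treated array lay above every untreated one. The difference from untreated cells was 0.93 with both agents (SE 0.14, limma adjusted p = 0.000559) and 0.70 with apigenin alone (SE 0.14, 1.63-fold, limma adjusted p = 0.00409). With TNFα alone it was 0.61 (SE 0.14, 95% interval 0.32 to 0.90), which missed the threshold with a limma adjusted p of 0.053 although the groups did not overlap. Its adjusted p for TNFα lay between 0.0212 and 0.234 over the alternatives tried. On top of the other agent the differences were smaller: 0.31 for apigenin in TNFα-treated cells (limma adjusted p = 0.19) and 0.22 for TNFα in apigenin-treated cells (limma adjusted p = 0.793). The test of non-additivity, the TNFα response with apigenin minus the response without it, gave -0.39 (SE 0.19, 95% interval -0.80 to 0.02, limma adjusted p = 0.999).

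The promoters of the members were searched for the E-box CACGTG, which reads the same on both strands, in RefSeq sequence (GRCh38.p14) from 250 bases before to 50 after the start of each gene. A full-length promoter was at hand for 43 of the 50 members, and 15 of them (34.9%) held at least 1 E-box, against 8.84% of 14576 promoters of kept genes. Ribosome biogenesis factors outside the list had a like share, at 24 of 63 (38.1%). Of the 17 matches in the members, 15 began within 50 bases of the start (88.2%), against 36.8% of 1444 matches in the kept genes. The share was nearly equal whether or not a member was called higher with apigenin alone, at 6 of 17 (35.3%) for those called and 9 of 26 (34.6%) for the rest. No E-box lay in these windows in the 5 RNA polymerase I genes or in NCL, NPM1 and DDX21, which says nothing about sites elsewhere.

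The E-box nearest the start is shown for 5 of the 6 members that were called higher with apigenin and hold one, and then for 3 members with nearly the same value in both groups, so that both kinds can be seen to carry the same core near the start. The capitals mark the E-box in a 30-base window, read 5′ to 3′ along the gene, and the number gives the position of its first base, with 1 as the first transcribed base. For BYSL (chr6:41921515-41921544, plus strand) it begins at 29, for PNO1 (chr2:68157885-68157914, plus) at 10, for UTP4 (chr16:69132621-69132650, plus) at -16, for IMP4 (chr2:130342900-130342929, plus) at 16 and for PES1 (chr22:30591880-30591909, minus) at 14. For MRTO4 (chr1:19251807-19251836, plus) it begins at 15, for NOP14 (chr4:2963374-2963403, minus) at 16 and for GNL2 (chr1:37595917-37595946, minus) at 4.
BYSL: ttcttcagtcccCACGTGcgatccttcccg
PNO1: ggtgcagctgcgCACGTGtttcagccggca
UTP4: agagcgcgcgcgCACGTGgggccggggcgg
IMP4: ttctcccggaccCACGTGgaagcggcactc
PES1: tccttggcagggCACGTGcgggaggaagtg
MRTO4: cgtcttccgccgCACGTGgattcagcgcga
NOP14: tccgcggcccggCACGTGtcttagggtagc
GNL2: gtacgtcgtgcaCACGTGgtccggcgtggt
The first 5 differed by 0.48 to 1.05 between apigenin and untreated cells, and the last 3 by 0.00, 0.02 and -0.07.

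Apigenin alone raised 21 of the 50 members and lowered 1, NOP58, while 28 did not pass the test. The background was 4.55% of all kept genes called higher and 6.83% called lower. Among the brighter genes it was 9.95% higher and 14.8% lower, against 42% and 2% of the members. In 26 members all 3 apigenin arrays lay above all 3 untreated arrays, where 11.1% of all kept genes and 1456 of the 7740 brighter ones did so. The median difference over the members was 0.35, against -0.02 over all kept genes. BYSL was the 1 member that reached a doubling. Leaving out each of the 6 arrays in turn left 19 or 20 members called, and 17 of the 22 calls were made in all 6 of these fits.

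Of the factors of later 40S maturation 5 of 8 rose with apigenin alone and none fell, with a median difference of 0.62. In TNFα-treated cells the median apigenin difference was 0.31 for these factors and 0.35 for the 60S factors, and no difference between roles was tested. BYSL, whose protein bystin is needed for processing of the small subunit RNA, read 7.38, 7.36 and 7.11 with apigenin, against 6.24, 6.18 and 6.30 in untreated cells (difference 1.05, SE 0.12, 2.07-fold, limma adjusted p = 0.000143). RIOK2, an atypical kinase of late 40S particles, read 6.89, 7.17 and 6.87 with apigenin, against 6.15, 5.99 and 6.10 in untreated cells (difference 0.90, SE 0.11, limma adjusted p = 0.000227). PNO1, an RNA-binding factor that works with the nuclease NOB1 at the end of the small subunit RNA, read 6.52, 6.35 and 6.70 with apigenin, against 5.55, 5.71 and 5.56 in untreated cells (difference 0.92, SE 0.15, limma adjusted p = 0.00137). None of these 3 genes had overlapping groups. RRP12, a factor of subunit export, read 6.08, 6.05 and 5.93 with apigenin, against 5.25, 5.18 and 5.31 in untreated cells (difference 0.77, SE 0.12), without overlap. TSR1, a GTPase-like factor of late 40S particles, rose by 0.46 (SE 0.11) and was called in 4 of the 6 fits that left out 1 array. The kinase RIOK1 differed by 0.03, the export adaptor LTV1 by 0.18 and NOB1 by 0.28, none of them called. RIOK1 read 6.81, 6.70 and 6.89 with apigenin, against 6.76, 6.57 and 6.98 in untreated cells, with full overlap. Whether RIOK1 and RIOK2 differ in response was not tested.

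Of the 60S assembly factors 7 of 15 rose with apigenin alone and none fell, with a median difference of 0.41. NIP7, a factor of pre-60S particles, read 8.70, 8.82 and 8.63 with apigenin, against 7.85, 7.83 and 7.84 in untreated cells (difference 0.88, SE 0.11, limma adjusted p = 0.000266). NOP2, a methyltransferase of the large subunit RNA, read 6.90, 6.99 and 7.14 with apigenin, against 5.98, 6.03 and 6.39 in untreated cells (difference 0.88, SE 0.14, limma adjusted p = 0.00115). Both genes stood apart between the groups on every array. NOP16, a nucleolar pre-60S protein, read 6.78, 6.21 and 6.51 with apigenin, against 5.66, 5.60 and 5.92 in untreated cells (difference 0.78, SE 0.15, limma adjusted p = 0.00427). WDR74 (0.76), the helicase DDX56 (0.73), RRP1B (0.71) and PES1 (0.48) rose too, although PES1 was called in 1 of the 6 fits that left out 1 array. PES1 belongs to the PeBoW complex, a trimer with BOP1 and WDR12, and its partners did not share its call. BOP1 differed by 0.41 (limma adjusted p = 0.0518) without overlap, and WDR12 by -0.24 (limma adjusted p = 0.402). A second BOP1 probe set averaged 4.70 with apigenin, 4.36 with TNFα and 4.48 in untreated cells. FTSJ3, a methyltransferase of ribosomal RNA, read 6.58, 6.75 and 6.70 with apigenin, against 7.18, 6.75 and 7.14 in untreated cells (difference -0.35, limma adjusted p = 0.145).

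In the small subunit processome, the early particle that processes the 5′ part of the precursor, 4 of 11 members rose with apigenin alone and none fell, with a median difference of 0.19. UTP4 read 9.33, 9.34 and 9.44 with apigenin, against 8.49, 8.57 and 8.73 in untreated cells (difference 0.77, SE 0.12, limma adjusted p = 0.000779). WDR3 rose by 0.73, the U3 snoRNP component IMP4 by 0.67 and UTP15 by 0.66. The remaining 7 ranged from -0.16 (IMP3) to 0.25 (UTP20). IMP3, another U3 snoRNP component, read 4.22, 4.03 and 4.40 with apigenin, against 4.35, 4.44 and 4.34 in untreated cells, with overlap. HEATR1 differed by 0.00 (SE 0.16) and NOP14 by 0.02, so the called members lay near 0.7 and the rest at or below 0.25.

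Among the RNA polymerase I genes POLR1C, a subunit shared with RNA polymerase III, rose by 0.64 (SE 0.11, limma adjusted p = 0.00146). RRN3, the initiation factor that recruits the polymerase, read 6.45, 6.90 and 7.23 with apigenin, against 5.94, 6.02 and 6.49 in untreated cells. Its groups overlapped, its difference was 0.71 (SE 0.22, limma adjusted p = 0.0499), and its call was made in 2 of the 6 fits that left out 1 array. RRN3 has pseudogene copies, and signal from them was not told apart here. The subunits POLR1A and POLR1B differed by 0.39 each and the promoter factor UBTF by 0.15, none of them called. UBTF read 5.42, 5.26 and 5.74 with apigenin, against 5.15, 5.51 and 5.32 in untreated cells, with overlap. The second probe set of POLR1A averaged 4.98 with apigenin and 3.90 in untreated cells.

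Of the snoRNP proteins 1 of 7 rose and 1 fell, with a median difference of 0.20 for apigenin alone. NOLC1, a chaperone that shuttles snoRNPs into the nucleolus, read 7.91, 7.93 and 8.01 with apigenin, against 7.35, 7.12 and 7.44 in untreated cells (difference 0.65, SE 0.14, limma adjusted p = 0.00765). NOP58, a core protein of box C/D snoRNPs, read 8.03, 8.02 and 8.24 with apigenin, against 8.38, 8.61 and 8.66 in untreated cells (difference -0.46, SE 0.14, limma adjusted p = 0.0465). The NOP58 groups did not overlap, but its call was made in 2 of the 6 fits that left out 1 array. The box C/D methyltransferase FBL differed by 0.20 and the box H/ACA proteins GAR1, NHP2 and NOP10 by 0.01 to 0.21, none of them called. Of the abundant nucleolar proteins, the helicase DDX21 rose by 0.69 (SE 0.11, limma adjusted p = 0.00105). Nucleolin (NCL) read 6.19, 6.39 and 6.39 with apigenin, against 6.24, 6.09 and 6.21 in untreated cells, an overlapping difference of 0.15, and nucleophosmin (NPM1) differed by 0.60 (SE 0.24, limma adjusted p = 0.144). NPM1 varied widely in cells given both agents, at 4.49, 3.65 and 4.93. It has many pseudogene copies, whose signal was not told apart.

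**Figure D2:**
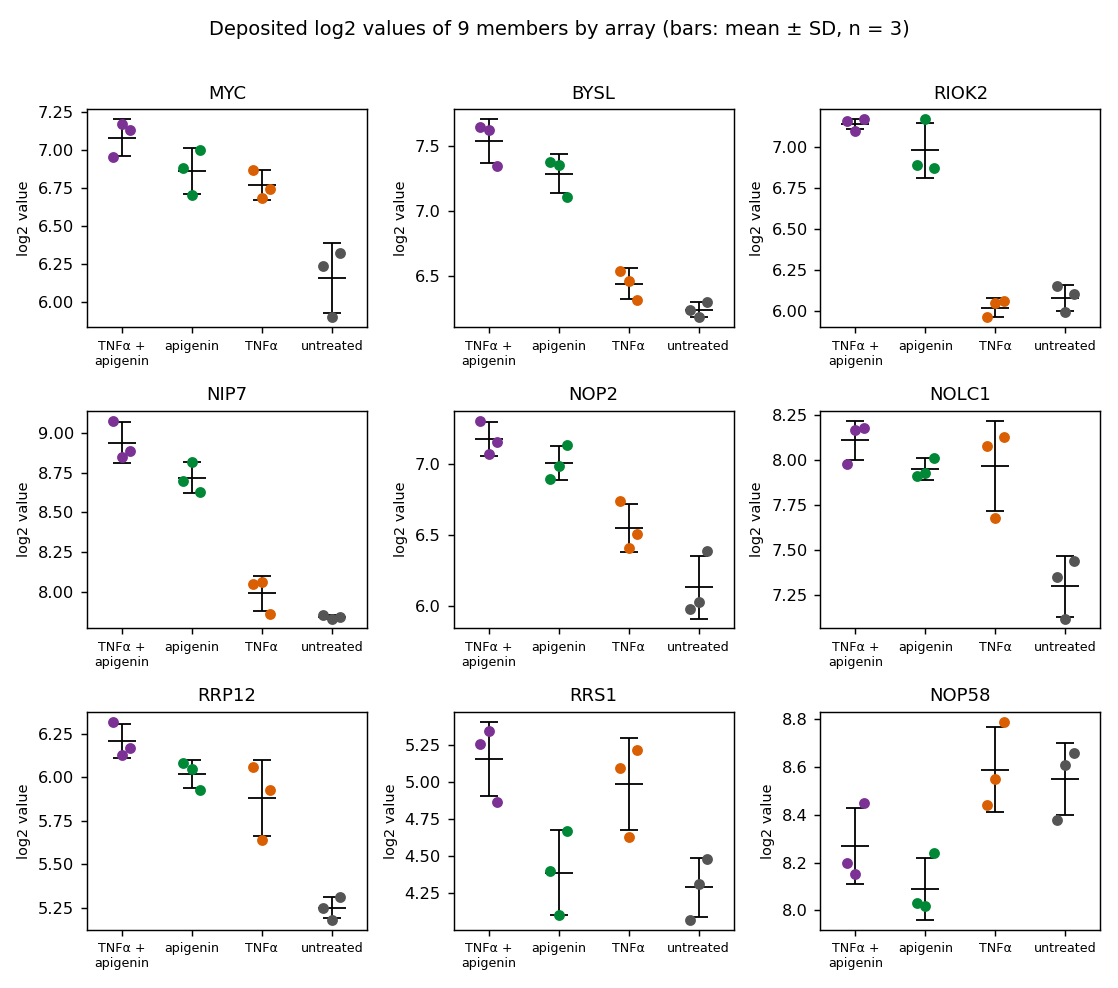
Log2 values of MYC and 8 members on the 12 arrays (points), with the group mean and SD (bars, n = 3); each panel has its own axis range. BYSL, RIOK2 and NIP7 separate the arrays with apigenin from those without it, RRS1 is higher with TNFα in both settings, and NOP58 is lower with apigenin alone than in untreated cells.

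In cells that also received TNFα, apigenin raised 14 of the 50 members and lowered none, against 4.21% of all kept genes called higher and 5.92% called lower (10.1% in either direction). Among the brighter genes 9.01% were higher and 12.5% lower, against 28% of the members higher. The median difference was 0.23, against -0.01 over all kept genes. This comparison shares no array with that of apigenin alone. Of the 21 members higher with apigenin alone, 12 (57.1%) were higher here too, close to the 565 of 936 (60.4%) among all kept genes that were higher with apigenin alone. As a share of all kept genes, 2.75% were higher in both. The sign was the same in both comparisons for 47 of 50 members (94%, against 68.5% of all kept genes), 41 of them positive in both and 6 negative in both. This share was not taken over the brighter genes, so brightness could account for part of the gap.

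RIOK2 and BYSL had the largest differences. RIOK2 read 7.16, 7.10 and 7.17 with both agents, against 5.96, 6.05 and 6.06 with TNFα (difference 1.12, SE 0.11, 2.17-fold, limma adjusted p = 6.05e-05). BYSL read 7.65, 7.63 and 7.35 with both agents, against 6.54, 6.46 and 6.31 with TNFα (difference 1.11, SE 0.12, 2.15-fold, limma adjusted p = 0.000138). NIP7 followed, with 9.08, 8.85 and 8.89 with both agents, against 8.05, 8.06 and 7.86 with TNFα (difference 0.95, SE 0.11, limma adjusted p = 0.000191). In each of the 3 genes the lowest array with both agents lay above the highest TNFα array by more than the spread within either group. UTP15, of the small subunit processome, read 7.84, 7.75 and 7.91 with both agents, against 6.86, 7.0 and 7.41 with TNFα (difference 0.74, SE 0.15). NOP2 read 7.31, 7.07 and 7.16 with both agents, against 6.74, 6.41 and 6.51 with TNFα (difference 0.63, SE 0.14). BRIX1, a pre-60S factor, read 8.18, 8.02 and 8.14 with both agents, against 7.66, 7.54 and 7.45 with TNFα (difference 0.56, SE 0.11). None of these 3 overlapped. PNO1 read 6.64, 6.45 and 6.59 with both agents, against 5.95, 5.71 and 6.31 with TNFα (difference 0.57, SE 0.15), and WDR75, of the small subunit processome, read 8.79, 8.48 and 8.62 with both agents, against 7.94, 8.39 and 7.86 with TNFα (difference 0.57, SE 0.16). These 2 also did not overlap, but PNO1 was called in 2 and WDR75 in 1 of the 6 fits that left out 1 array. BRIX1 and WDR75 were called here and not with apigenin alone, where they differed by 0.31 (limma adjusted p = 0.0985) and 0.19. Their interaction terms of 0.26 and 0.37 were not called. FTSJ3 differed by -0.38, NOP58 by -0.33 and WDR12 by -0.29, none of them called. The count of called members was lower without any 1 array. It was 9 without TNFα replicate 1, TNFα replicate 2 or combined-treatment replicate 3, 6 without combined-treatment replicate 1, 10 without combined-treatment replicate 2 and 11 without TNFα replicate 3. In all 6 of these fits 6 members were called.

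**Figure D3:**
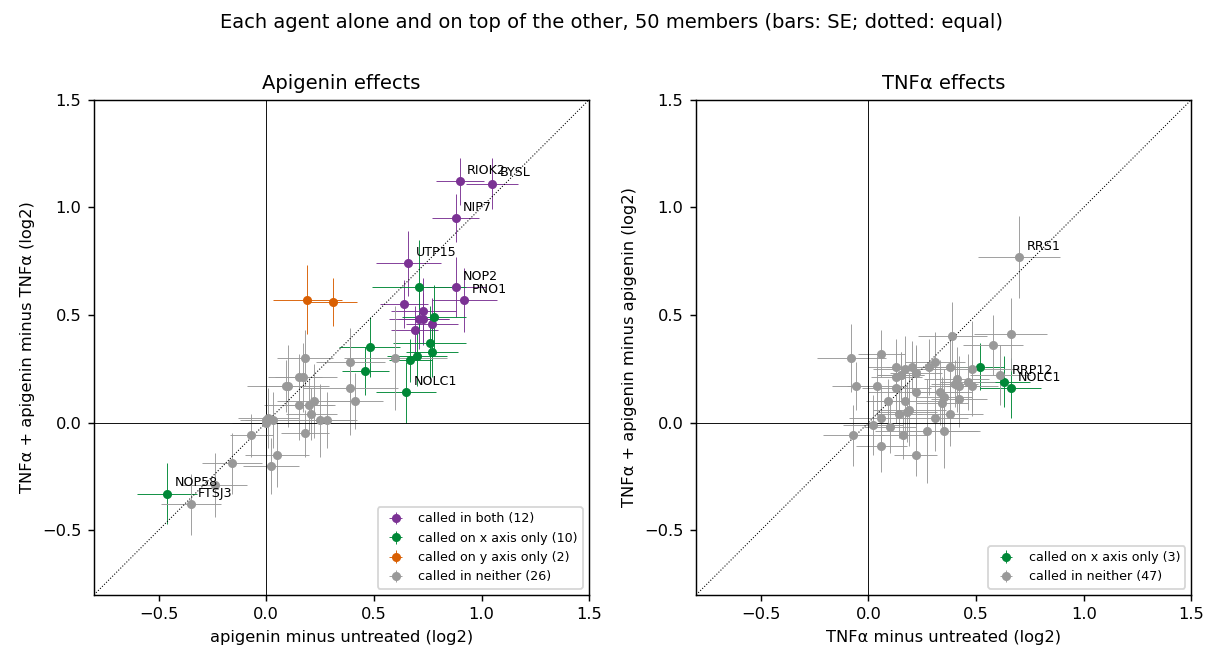
Each point is 1 of 50 genes with its standard errors (SE); the left panel sets the apigenin effect in TNFα-treated cells (y axis) against that of apigenin alone (x axis), and the right panel sets the TNFα effect in apigenin-treated cells against that of TNFα alone, all in log2 units. In the left panel 12 genes were called on both axes and 26 on neither, and in the right panel 3 were called for TNFα alone and none for TNFα on top of apigenin.

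TNFα alone raised 3 members and lowered none, against 0.778% of all kept genes called higher and 0.219% called lower, and 1.67% of the brighter genes called higher. NOLC1 read 8.08, 7.68 and 8.13 with TNFα, against 7.35, 7.12 and 7.44 in untreated cells (difference 0.66, SE 0.14, limma adjusted p = 0.0374). RRP12 read 6.06, 5.64 and 5.93 with TNFα, against 5.25, 5.18 and 5.31 in untreated cells (difference 0.63, SE 0.12, limma adjusted p = 0.0263). DDX21, the helicase, read 8.95, 8.77 and 8.96 with TNFα, against 8.44, 8.25 and 8.43 in untreated cells (difference 0.52, SE 0.11, limma adjusted p = 0.0375). The groups did not overlap in any of the 3. In 20 members all TNFα arrays lay above all untreated arrays, where 8.42% of all kept genes and 1024 of the 7740 brighter ones did so. The median difference over the members was 0.25, against 0.02 over all kept genes and 0.08 over the brighter ones. The differences stayed of like size when 1 array was left out, at 0.57 to 0.80 for NOLC1, 0.54 to 0.75 for RRP12 and 0.46 to 0.58 for DDX21, but the calls did not hold. No member was called without untreated replicate 1, untreated replicate 2, TNFα replicate 1 or TNFα replicate 3, while 5 were called without untreated replicate 3 and 7 without TNFα replicate 2.

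In apigenin-treated cells TNFα called none of the 50 members by limma in either direction, where 43 genes (0.209%) were called in all, each of them higher. Without adjustment 6 members (12%) had a p below 0.05, against 7.24% of all kept genes and 12.7% of the brighter ones. By this count alone the members showed no excess over the brighter genes, a set bounded only from below. Of the brighter genes 0.517% were called higher. In 19 members all arrays with both agents lay above all apigenin arrays and in 1 they lay below, where 10.4% and 3.77% of all kept genes did so. Of the 7740 brighter genes, 1448 lay above and 273 below. The median difference was 0.17, against 0.03 over all kept genes and 0.09 over the brighter ones. A positive difference was seen in 42 of the 50 members and in 5309 of the 7740 brighter genes. In this comparison, which shares no array with that of TNFα alone, the sign matched the TNFα-alone difference for 41 of 50 members (82%, against 59.9% of all kept genes). The match was not counted over the brighter genes. RRS1, a factor that brings the 5S ribonucleoprotein into pre-60S particles, had the largest difference. It read 5.26, 5.35 and 4.87 with both agents, against 4.40, 4.10 and 4.67 with apigenin (difference 0.77, SE 0.19, limma adjusted p = 0.224). With TNFα alone it read 5.10, 4.63 and 5.22, against 4.07, 4.31 and 4.48 in untreated cells (difference 0.70, SE 0.19, limma adjusted p = 0.127). So the RRS1 groups did not overlap in either TNFα comparison, while with apigenin alone it differed from untreated cells by 0.10. When both TNFα comparisons were averaged, a contrast of 6 arrays against 6 chosen after the data were seen, RRS1 (0.74, SE 0.14, limma adjusted p = 0.0138) was called higher, as were UTP20, RRP1B, MYC, RRP12 and DDX21. That made 6 of 50 members higher and none lower, against 1.51% of all kept genes called higher and 3.33% of the brighter ones. UTP20, a scaffold of the small subunit processome, was the 1 of these in which all 6 arrays with TNFα lay above all 6 without it, at 7.0 to 7.50 with TNFα, alone or combined, and 6.38 to 6.99 without it.

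In cells given both agents 29 members rose relative to untreated cells and none fell, against 7.15% of all kept genes called higher and 5.37% called lower, and 15.8% of the brighter genes called higher. The median difference was 0.55, against 0.00 over all kept genes. By role, 7 of 8 factors of later 40S maturation, 10 of 15 of 60S assembly, 5 of 11 of the small subunit processome, 3 of 5 RNA polymerase I genes, 2 of 3 abundant nucleolar proteins, 1 of 7 snoRNP proteins and MYC were higher. BYSL had the largest change, at 7.65, 7.63 and 7.35 with both agents, against 6.24, 6.18 and 6.30 in untreated cells (difference 1.31, SE 0.12, 2.47-fold, limma adjusted p = 2.37e-05). NIP7 (1.10), RRP1B (1.07), RIOK2 (1.06) and NOP2 (1.05) also more than doubled. RRP1B, a nucleolar protein of 60S assembly, read 6.07, 6.01 and 5.93 with both agents, against 4.86, 4.76 and 5.18 in untreated cells, and its values with 1 agent, 5.61, 5.58 and 5.74 with apigenin and 5.61, 5.25 and 5.70 with TNFα, lay between. The called members also included POLR1B (0.66), UTP20 (0.67), NOB1 (0.47), LTV1 (0.43), BOP1 (0.52), RRS1 (0.87) and NCL (0.36). The second BOP1 probe set barely differed, averaging 4.57 with both agents and 4.48 in untreated cells. Of the 6 fits that left out 1 array, RRS1 was called in 6, POLR1B and BOP1 in 4 each, UTP20 and NOB1 in 3 each, LTV1 in 1 and NCL in 0. Leaving out 1 array gave 21 to 27 members, and 20 of the 29 calls were made in all 6 of these fits.

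**Figure D4:**
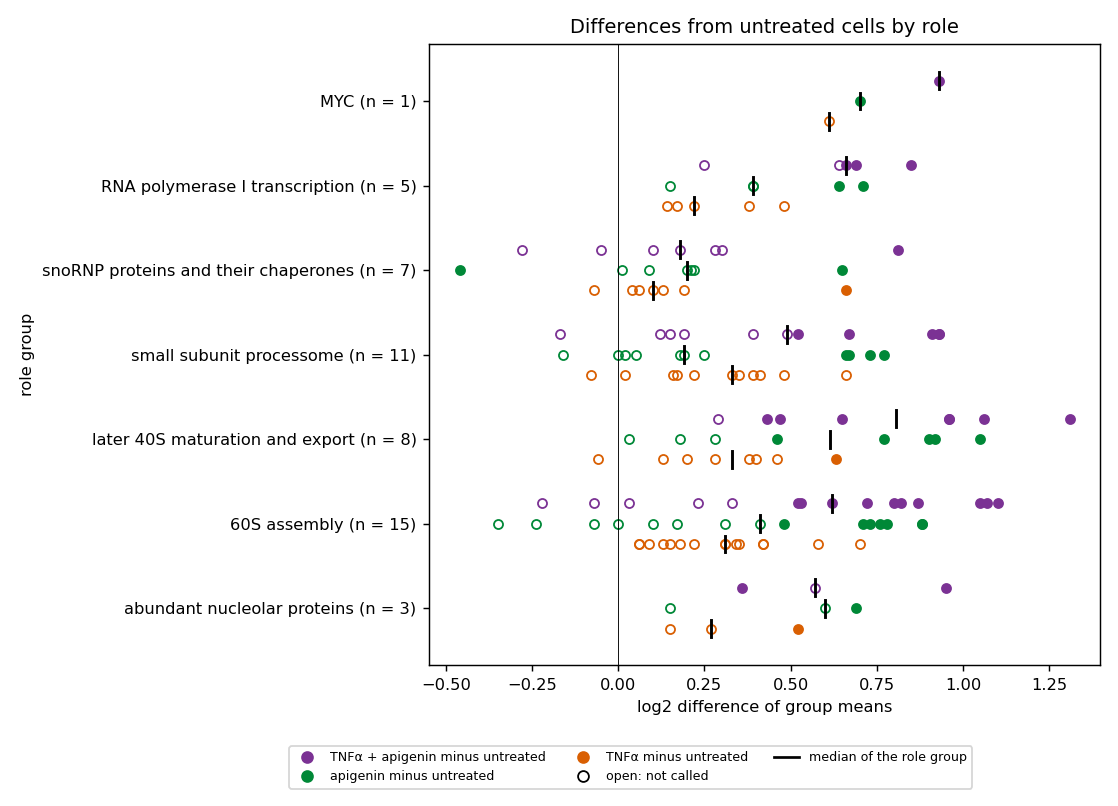
Log2 differences from untreated cells for each of the 50 genes by role: cells given both agents (purple, upper row of each role), apigenin (green, middle) and TNFα (orange, lower); filled points passed the test and black bars are medians. The medians of the later 40S factors are 0.80 with both agents and 0.62 with apigenin, and those of the snoRNP proteins 0.18 and 0.20, and the roles were not tested against each other. The 3 differences share the untreated arrays.

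No member departed from additivity beyond the threshold. The interaction was called by limma in none of the 50 members and in 11 genes (0.0535%) in all, 0.00972% higher and 0.0437% lower (0.0258% and 0.0517% of the brighter genes). Without adjustment 3 members had a p below 0.05, which is 6% against 4.23% of all kept genes and 4.7% of the brighter ones. They were NOLC1 at -0.50 (SE 0.20), RRP12 at -0.45 (SE 0.18) and IMP4 at -0.37 (SE 0.15), each with a limma adjusted p of 0.999. The differences leaned to one side, with 34 of 50 below 0 and a median of -0.12, against 0.01 over all kept genes. Of all 20572 kept genes 9964 lay below 0, and of the 7740 brighter ones 3745. The lean was not tested. NOLC1, the member with the lowest unadjusted p here, read 7.98, 8.17 and 8.18 with both agents, 7.91, 7.93 and 8.01 with apigenin and 8.08, 7.68 and 8.13 with TNFα. Its groups given an agent overlapped, against 7.12 to 7.44 in untreated cells. IMP4 read 5.76, 5.69 and 5.78 with both agents, 5.96, 5.75 and 5.96 with apigenin, 5.46, 5.47 and 5.42 with TNFα, and 5.21, 5.24 and 5.22 in untreated cells. In BYSL, RIOK2 and NIP7 the interaction lay between 0.06 and 0.22. With 3 arrays per group the interval of an interaction was wide, for example -0.92 to -0.08 for NOLC1.

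Genes of the same pathway outside the list were read from further lists. Of 75 measured ribosome biogenesis factors, 23 (30.7%) rose and 5 (6.67%) fell with apigenin alone (median 0.16), against 4.55% and 6.83% of all kept genes. With apigenin in TNFα-treated cells 18 (24%) rose and 5 (6.67%) fell (0.19), against 4.21% and 5.92%. The shares that fell were thus near those of all kept genes, but below the 14.8% and 12.5% of the brighter ones. Of the brighter genes 9.95% and 9.01% were called higher in these 2 comparisons. With TNFα alone 1 (1.33%) rose (0.22), against 0.778% of all kept genes and 1.67% of the brighter ones. With both agents against untreated cells 32 (42.7%) rose and 2 (2.67%) fell (0.38), against 7.15% and 5.37% of all kept genes. Among the brighter genes these shares were 15.8% and 11.1%. UTP23 (1.26), UTP3 (1.16) and UTP14A (1.02), all of the small subunit processome, had the largest increases with apigenin alone. UTP23 read 4.93, 4.82 and 4.92 with apigenin, against 3.62, 3.54 and 3.72 in untreated cells, without overlap. UTP18, of the same particle, went the other way, at 5.55, 5.60 and 5.97 with apigenin, against 6.88, 6.60 and 6.89 in untreated cells (difference -1.08, SE 0.13, limma adjusted p = 0.000191). PWP1 (-0.59), LAS1L (-0.51) and UTP6 (-0.48) fell as well. BMS1, a GTPase of the small subunit processome, was the 1 gene called with TNFα alone, at 7.64, 7.66 and 7.68 with TNFα, against 7.02, 6.72 and 7.13 in untreated cells (difference 0.70, SE 0.12, limma adjusted p = 0.00975). Of 9 further RNA polymerase I subunits and factors POLR1D and the termination factor TTF1 rose with apigenin alone. That was 22.2%, against 4.55% of all kept genes and 9.95% of the brighter ones. In the RNA exosome, which trims the ends of precursor RNAs, EXOSC4 rose and EXOSC9 and MTREX fell, with 9 of 12 not called and a median of -0.11. These calls were 8.33% higher and 16.7% lower, against 4.55% and 6.83% of all kept genes. They were near the 9.95% and 14.8% of the brighter genes.

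MYC's partners and antagonists mostly did not pass. Of 11 measured, 1 rose and 1 fell with apigenin alone (9.09% each, against 4.55% and 6.83% of all kept genes). Of the brighter genes 9.95% rose and 14.8% fell. MXI1, which competes with MYC for MAX, read 2.83, 2.87 and 2.97 with apigenin, against 3.70, 3.5 and 3.67 in untreated cells (difference -0.74, SE 0.15, limma adjusted p = 0.00542). MGA, a MAX-binding repressor, read 6.14, 6.58 and 6.45 with apigenin, against 5.55, 6.05 and 5.92 in untreated cells (difference 0.55, SE 0.17, limma adjusted p = 0.0483). Neither gene overlapped between the groups. The MXI1 values lay close to 2.81, the median for all kept genes. In TNFα-treated cells apigenin changed MXI1 by -0.43 (limma adjusted p = 0.092), not called, and MGA by 0.70 (limma adjusted p = 0.0158). With both agents against untreated cells MXI1 differed by -0.70 (limma adjusted p = 0.00712) and MGA by 1.13 (limma adjusted p = 0.000564). MAX differed by 0.27 (limma adjusted p = 0.245). Of 15 measured MYC targets outside the ribosome pathway, 1 rose with apigenin alone and none fell, a median of 0.03. It was PPAT, an enzyme of purine synthesis (0.90, SE 0.20, limma adjusted p = 0.00931). With both agents against untreated cells PPAT (1.23) and NAMPT (1.0) rose, and 13 did not pass. With apigenin alone 6.67% of that list were called higher, against 4.55% of all kept genes and 9.95% of the brighter ones. With both agents it was 13.3%, against 7.15% and 15.8%.

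Of 173 small nucleolar RNAs, which work with the snoRNP proteins above, 15 (8.67%) were called higher with apigenin alone. The share was 4.55% for all kept genes and 9.95% for the brighter ones. With apigenin in TNFα-treated cells 8 (4.62%) were higher, near the 4.21% of all kept genes and below the 9.01% of the brighter ones. The few calls went with a shift of the set. The median difference was 0.45 with apigenin alone and 0.53 in TNFα-treated cells, against -0.02 and -0.01 over all kept genes. It was positive in 153 and 146 of the 173, against 9612 and 9833 of the 20572 kept genes. This shift was not tested. With both agents against untreated cells 6 (3.47%) were higher, below the 7.15% of all kept genes, with a median difference of 0.21. With TNFα alone none was called by limma, and 9 had an unadjusted p below 0.05, where 11.6% of all kept genes did so. None was called lower. Over the 173 the median level was 5.86, 5.85 and 5.90 with both agents, 6.34, 5.77 and 6.09 with apigenin, 5.13, 5.96 and 4.75 with TNFα, and 5.69, 5.44 and 5.33 in untreated cells. The TNFα arrays spread over more than 1 log2 unit, while the member median there ran from 6.43 to 6.64. Within that group the 2 measures ran in opposite order, with the members at 6.46, 6.43 and 6.64, which on 3 arrays was not tested. With the small nucleolar RNA median as a covariate, 19 members were called higher with apigenin alone and 13 with apigenin in TNFα-treated cells, 29 with both agents and 1 with TNFα alone. None was called lower, so NOP58 lost its call.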

How the data were processed

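Biotin-labelled cDNA from total RNA of 12 samples was measured on Affymetrix arrays for whole transcripts, in 4 groups of 3. The deposited values are on a log2 scale, 1 per probe set and array. The submitters' processing notes name Affymetrix Expression Console and give no version, algorithm or settings. The table held 53617 probe sets, of which 23871 had 1 gene symbol in the platform's probe table (1842 had several and 27904 were unnamed here), and 90 symbols were updated through the gene identifier. Probe sets at or above the 25th percentile of their own array on at least 3 arrays were kept, and the one with the highest mean was read for each of 20572 genes. The model had 4 group means and 8 residual degrees of freedom and was fitted by lmFit and eBayes of limma 3.58.1 (R 4.3.3). Calls needed an adjusted p below 0.05 (Benjamini-Hochberg, over all kept genes of the comparison). The fit was tested on simulated data. The number of arrays limits the precision: 3 against 3. SE is that of the moderated fit. Alternatives were quantile normalisation, other filters and variance settings, averaged probe sets, the groups compared alone, the replicate number as a block, a small nucleolar RNA covariate, and leaving out arrays. Genes given with values per array were the called members with the largest changes without overlap, MYC, the extremes of each role, and up to 4 called genes per direction of each further list. Values of NPM1, RRS1 and UTP20 by array, and genes named by their difference alone, were added after the values were seen. The members, lists and tests were chosen with earlier results of these data known.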

Additional observations from a re-analysis of the deposited data

How the results depend on the processing

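Counts of called members kept within 1.5 times of the reported value under the alternatives listed in the methods for apigenin alone (22, range 19 to 25, and 26 for the average over both apigenin comparisons), for both agents against untreated cells (29, range 21 to 31), and stayed at 0 for TNFα in apigenin-treated cells and for the interaction. For apigenin in TNFα-treated cells the 14 became 7 without all arrays numbered 3 and 6 to 11 when 1 array was left out. For TNFα alone the 3 became 5 with quantile normalisation, 7 with a trended and robust variance, 7 with the replicate block, 1 with the small nucleolar RNA covariate, 0 without all arrays numbered 3, 0 with the 2 groups fitted alone, 0 to 7 with 1 array left out, and 6 for the average over both TNFα comparisons, chosen after the data were seen. The cause was not tested, except that fewer arrays leave fewer degrees of freedom. In refits of members named by the rule, 466 values kept their side of the threshold, 45 lost a call, 4 gained one and none changed sign. Same-numbered arrays of different groups correlated at 0.018 to 0.464 (median 0.286) in their deviations from the group means. Arrays of different number and group correlated at -0.442 to 0.102 (median -0.073), and 11 of 12 arrays correlated best with their own number. The arrays thus share some variation by number, which the main model leaves out. The labels do not say what the number stands for, so it was used as a block only in an alternative. With the replicate number as a block 24, 17, 0, 31 and 0 members were called for apigenin alone, apigenin with TNFα, TNFα with apigenin, both agents and the interaction. Over all kept genes, the 2342 calls for apigenin alone became 3501 with the block, 1290 with the covariate and 1505 without arrays numbered 3 (1534 to 2050 with 1 array left out, 4148 for the average). The 2085 for apigenin with TNFα became 3315 with the block, 1057 with the covariate and 1288 without arrays numbered 3 (1191 to 2063 with 1 left out). The 205 for TNFα alone became 330 with quantile normalisation, 632 with the block, 85 without arrays numbered 3 and 73 with the groups alone (98 to 314 with 1 left out, 357 for the average). The 43 for TNFα with apigenin ranged from 15 to 100, and the 11 of the interaction from 2 to 14. Signal over background limits dim genes.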
